A study of Mus musculus with 6 samples.

Results

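The smooth muscle contractile apparatus was examined as 39 genes of the deposited count table, out of 25655 genes in all. They were chosen by symbol as the muscle actins, myosin chains, calponins, transgelins, tropomyosins, thin filament and linker proteins, PDZ-LIM proteins, the oxytocin receptor and the myosin kinase and phosphatase genes, and serum response factor (SRF) with its cofactors. All 39 were present in the table. The cells were Comma-Dβ (written Comma-Dbeta in the labels), a mouse mammary epithelial cell line, used here at passage 29. In the siID4 group they were transfected with the siGENOME Mouse Id4 SMARTpool, and in the NT group with the ON-TARGETplus Non-targeting Control Pool. Both groups received 20 nM of siRNA with Dharmafect-4 and were harvested 48 hr later, and both were grown in DMEM/F12 with 2% FBS, HEPES, insulin and 5 ng/mL EGF. Each group had 3 libraries, numbered 1 to 3 and called biological replicates in the study's design text. The model is limited to a single cell line, and the pools of the 2 groups came from different product lines.

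In the mammary gland, myoepithelial cells form a contractile layer around the luminal cells. Oxytocin binds its receptor on these cells and raises calcium, calmodulin then activates myosin light chain kinase, and phosphorylated myosin pulls on actin filaments so that milk is ejected. Genes of this apparatus share control by SRF, which binds the CArG box in DNA together with myocardin or the myocardin-related factors MRTF-A and MRTF-B (genes Mkl1 and Mkl2). MRTF proteins are held in the cytoplasm by monomeric actin and enter the nucleus when actin polymerises. ID4 is a helix-loop-helix protein without a DNA-binding region, which keeps its partners, the E proteins, from binding the E-box. The study asked how lowering ID4 changes expression in these cells, and contractile genes are one readout of the myoepithelial state.

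RNA libraries were made with a stranded poly(A) kit and held from 19216688 to 23095620 expected counts. Levels are given as CPM (counts relative to the library total) scaled by TMM, which weights libraries by their composition, and levels compared between genes are given as TPM (transcripts relative to all transcripts of the library), which also divides by the deposited gene length. Id4 was 135, 114 and 118 CPM in NT replicates 1 to 3 and 59.4, 62.2 and 48.2 CPM in siID4 replicates 1 to 3. The siID4 mean was 46.3% of the NT mean (log2 fold change −1.11, SE 0.10, edgeR adjusted p = 8.65e-04). Several markers of the labelled epithelial origin were present, and so were fibroblast genes. Krt14 and Krt5, keratins of basal cells, were at 936 and 822 CPM in NT, and Epcam, an epithelial adhesion protein, was at 222 CPM. Of the other epithelial markers listed, Krt19, Lgr5 and Foxa1 were at 1.57, 1.03 and 0.411 CPM in NT. The fibroblast genes Col1a1, Col1a2 and Col3a1 were at 1171, 1074 and 769 CPM in NT.

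Promoter sequences are shown for members that carry the recognition sequence of SRF close to their start. Promoter windows from 250 bases before to 50 bases after the start were taken from RefSeq (GRCm38.p6). They matched 34 of the 39 genes, and Actg2, Myh11, Tagln, Myocd and Svil were not in that table. The strict CArG box, a run of A or T between CC and GG, was searched, a pattern that reads alike on both strands. It stood in a window of 6 of the 34 genes, namely Acta1, Actc1, Myl6, Myl9, Cnn2 and Srf, against 1.81% of 27025 genes. Among the members called higher in siID4, 2 of 9 matched genes had it, against 3 of 21 that were tested and not called. Windows of Myl9 and Cnn2, which were called, and of Myl6 and Srf, which were not, are shown with the CArG box in capitals, 5′ to 3′ on the strand of the gene.
Myl9, chr2:156775214-156775513, plus strand: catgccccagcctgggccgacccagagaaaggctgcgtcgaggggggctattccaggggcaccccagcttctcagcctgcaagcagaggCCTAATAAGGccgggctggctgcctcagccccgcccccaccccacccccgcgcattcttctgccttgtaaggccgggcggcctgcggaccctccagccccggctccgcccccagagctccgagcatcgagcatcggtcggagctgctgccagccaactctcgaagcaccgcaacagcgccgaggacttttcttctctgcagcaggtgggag
Cnn2, chr10:79988350-79988649, plus strand: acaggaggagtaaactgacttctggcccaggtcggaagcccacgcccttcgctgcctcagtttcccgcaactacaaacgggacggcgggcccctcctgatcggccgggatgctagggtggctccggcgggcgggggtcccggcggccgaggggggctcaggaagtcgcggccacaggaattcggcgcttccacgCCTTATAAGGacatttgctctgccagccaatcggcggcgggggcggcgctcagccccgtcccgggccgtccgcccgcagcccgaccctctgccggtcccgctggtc
Myl6, chr10:128492960-128493259, minus strand: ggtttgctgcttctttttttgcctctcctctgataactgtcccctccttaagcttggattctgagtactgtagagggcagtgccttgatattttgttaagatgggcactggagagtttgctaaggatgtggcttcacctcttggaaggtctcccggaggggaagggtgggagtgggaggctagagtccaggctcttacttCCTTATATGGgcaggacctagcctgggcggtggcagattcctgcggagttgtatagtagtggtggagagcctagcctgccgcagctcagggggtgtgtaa
Srf, chr17:46556113-46556412, minus strand: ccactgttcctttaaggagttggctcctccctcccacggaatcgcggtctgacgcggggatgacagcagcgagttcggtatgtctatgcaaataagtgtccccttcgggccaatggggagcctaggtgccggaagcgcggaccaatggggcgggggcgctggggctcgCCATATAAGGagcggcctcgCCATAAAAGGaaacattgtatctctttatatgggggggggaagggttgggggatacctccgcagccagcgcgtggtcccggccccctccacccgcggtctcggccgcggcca
The box began 161 bases before the start in Myl9, 56 in Cnn2 and 50 in Myl6, which had it in 1 of its 2 windows. Srf held 2 boxes, beginning 82 and 62 bases before its start. The E-box CANNTG, searched in the same way and also the same on both strands, was in a window of 26 of the 34 members, against 75.0% of all genes. The sequence CATTCC or its complement on the other strand GGAATG, known as the MCAT element that TEAD factors bind, was in 12 of the 34, against 16.6% of all genes. A match in such a window is a description of letters and not a bound site.

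Of the 39 genes, 33 passed the filter on low counts and were tested. In siID4 cells 10 were called higher and 0 lower by edgeR's quasi-likelihood test at a Benjamini-Hochberg adjusted p under 0.05. The 10 were Cnn1, Lmod1, Tagln, Oxtr, Myl9, Acta2, Tpm1, Cnn2, Sorbs2 and Mkl1. This was 30.3% of the members tested, where 4.62% of all 13941 genes tested were called higher, 4.93% lower and 9.55% in either direction. In 18 of the 33 every siID4 library lay above every NT library, against 15.5% of all genes tested. The median log2 fold change was 0.20 over the 33 members and 0.00 over all genes tested. Of the 33, 28 had a log2 fold change above 0, as had 50.2% of all genes tested. DESeq2 called 12 higher and 0 lower, where it called 4.93% of genes higher and 5.75% lower. At an unadjusted p under 0.05, edgeR had 20 members higher and 2 lower (Tagln2 and Tpm3), against 12.9% and 12.7% of all genes tested. With the replicate number as a block, 23 members were called higher and 2 lower, and that fit called 17.9% of all genes higher and 18.3% lower. In whole-culture RNA a change in the number of cells with a contractile programme and a change in the RNA per cell cannot be told apart. Leaving out NT replicate 2 or siID4 replicate 2 left 6 members called higher, in fits that called 2.05% and 1.56% of all genes higher.

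The genes called lie, on GRCm38 in GENCODE M21, at chr9:22099216-22109630 (Cnn1, plus strand), chr1:135324807-135368065 (Lmod1, plus), chr9:45929619-45936058 (Tagln, minus), chr6:112473683-112489943 (Oxtr, minus) and chr2:156775420-156781658 (Myl9, plus). The other positions are chr19:34241090-34255590 (Acta2, minus), chr9:67022590-67049406 (Tpm1, minus), chr10:79988584-79996062 (Cnn2, plus), chr8:45507788-45827906 (Sorbs2, plus) and chr15:81012281-81190757 (Mkl1, minus). All are protein-coding genes, and the counts cover their exons.

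**Figure D1:**
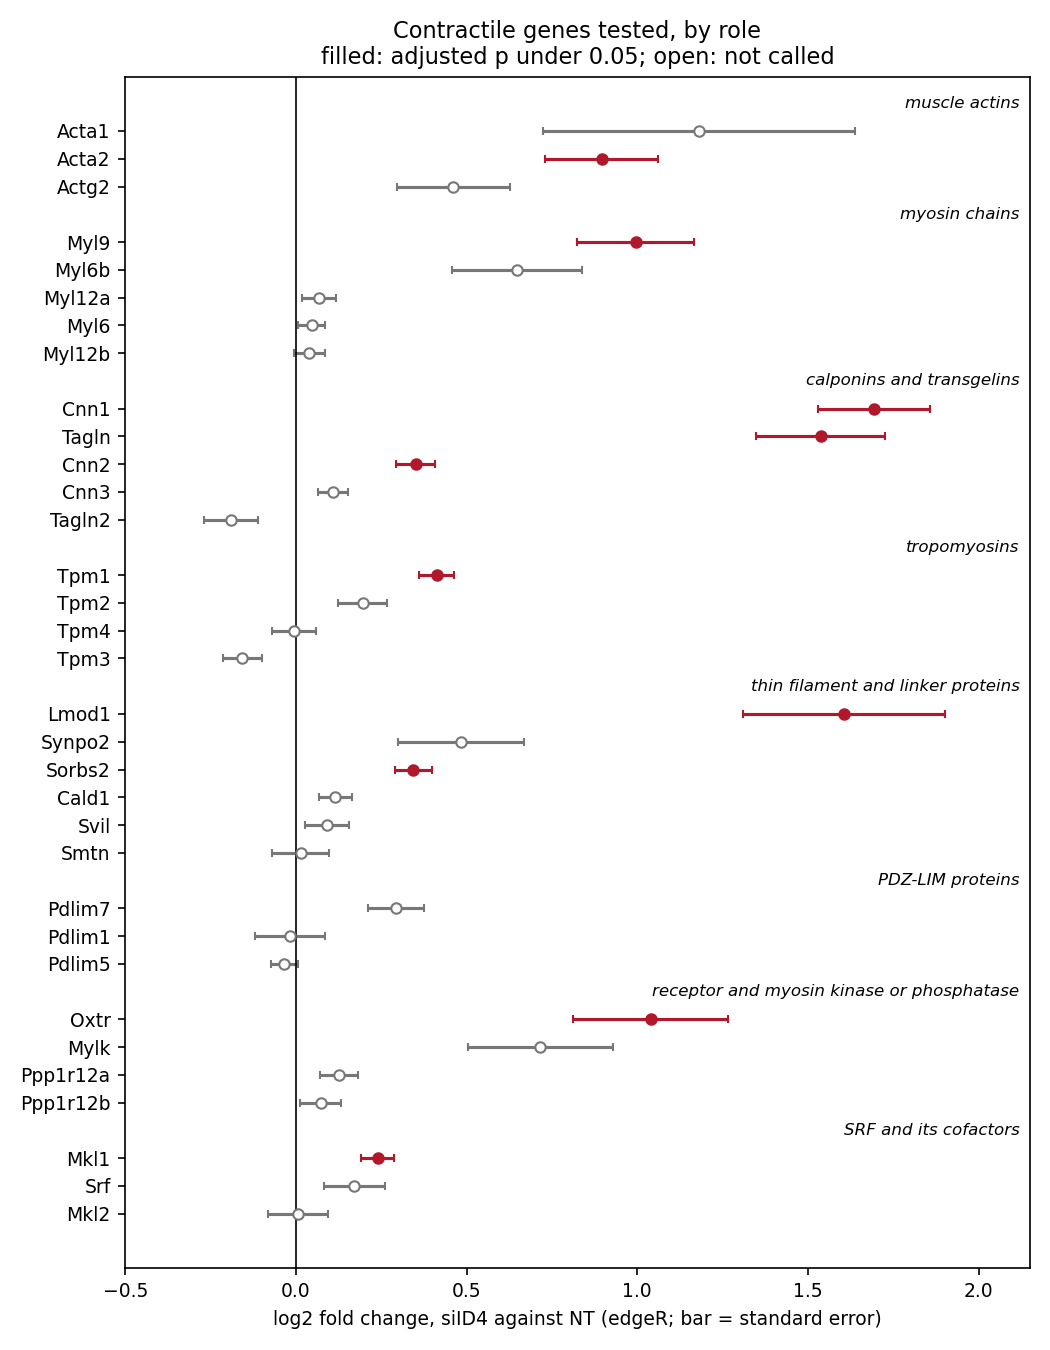
Log2 fold change of siID4 against NT for the 33 contractile genes tested, grouped by role, with horizontal bars for the standard error. Filled points are the 10 genes called and open points the others. The smooth muscle forms Cnn1, Tagln and Lmod1 lie furthest to the right at 1.69, 1.54 and 1.61, while Tpm4, Pdlim1, Smtn and Mkl2 lie within 0.02 of 0.

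The actins of muscle were represented by Acta2. Acta2, the α-actin of smooth muscle and the usual marker of myoepithelium, measured 365, 447 and 571 CPM in NT replicates 1 to 3 against 783, 813 and 978 CPM in siID4 replicates 1 to 3. The lowest siID4 library stood above the highest NT library, and replicate 3 was the highest in both groups. Acta2 rose by 0.90 on the log2 scale (SE 0.16, adjusted p = 0.0195 by edgeR). Actg2, the γ-actin of smooth muscle, was 9.23, 10.9 and 14.8 CPM in NT and 15.4, 14.9 and 18.1 CPM in siID4. Its groups met almost without a gap, and it was not called (log2 fold change 0.46, SE 0.17, edgeR adjusted p = 0.118, 3.60e-05 with the replicate block and 0.0169 without NT replicate 3). Acta1, the α-actin of skeletal muscle, stayed at or under 1.04 CPM in all 6 libraries, and its groups overlapped (adjusted p = 0.141, 0.0126 with the block and 0.0454 without NT replicate 3). Actc1, the cardiac form, had 0 counts in every library, which allows up to 0.156 CPM at the shallowest depth by a floor of 3 counts. The muscle actins share nearly all of their coding sequence. The deposited value of Acta2 was not whole in 3 of 6 libraries, which happens where reads are divided between genes. Values of Acta1, Actg2 and Actc1 were whole in every library, and those of the cytoplasmic actins Actb and Actg1 were not whole in each of the 6. Which gene shared reads with Acta2 was not tested, so how its reads were divided is uncertain. Acta2 lost its call when low counts were not filtered (adjusted p = 0.125) and without NT replicate 2 (0.0545) or siID4 replicate 1 (0.0603), 2 (0.0554) or 3 (0.0595).

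Among the calponins and transgelins, which bind along actin filaments, the smooth muscle forms had the largest fold changes. Cnn1, which encodes the smooth muscle calponin, was 5.52, 4.80 and 7.83 CPM in NT and 20.5, 17.7 and 21.0 CPM in siID4. No library of either group came near the other group. The log2 fold change was 1.69 (SE 0.16, adjusted p = 7.85e-04), and within same-numbered libraries it was 1.81, 1.78 and 1.36 on the log2(CPM + 0.5) scale. Tagln, which encodes transgelin (SM22α), was 21.2, 23.7 and 34.2 CPM in NT and 70.8, 68.1 and 91.4 CPM in siID4, again with replicate 3 highest in both groups. Its log2 fold change was 1.54 (SE 0.19, adjusted p = 0.00400). Pcsk7 overlaps Tagln on the opposite strand, and whether the counting used strand is not given in the sources used here. Pcsk7 itself averaged 40.7 and 43.2 CPM in the NT and siID4 groups (adjusted p = 0.511).

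The broadly expressed relatives differed from these forms. Cnn2, a calponin found in many cell types, was 248, 259 and 278 CPM in NT and 317, 331 and 354 CPM in siID4. It rose by 0.35 on the log2 scale (SE 0.06, adjusted p = 0.00684), with nearly the same step in each same-numbered pair (0.35 in all 3). Cnn3, the acidic calponin, was 480, 471 and 499 CPM in NT and 528, 502 and 532 CPM in siID4. The gap between its groups was small, and it was not called (adjusted p = 0.165, and 0.00118 with the block). Tagln2, a transgelin of non-muscle cells, had lower means in siID4, with 528, 530 and 620 CPM in NT and 470, 461 and 540 CPM in siID4. Its groups overlapped and it was not called (log2 fold change −0.19, adjusted p = 0.177), but in same-numbered libraries it was lower in 3 of 3 pairs (adjusted p = 4.04e-07 with the block).

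**Figure D2:**
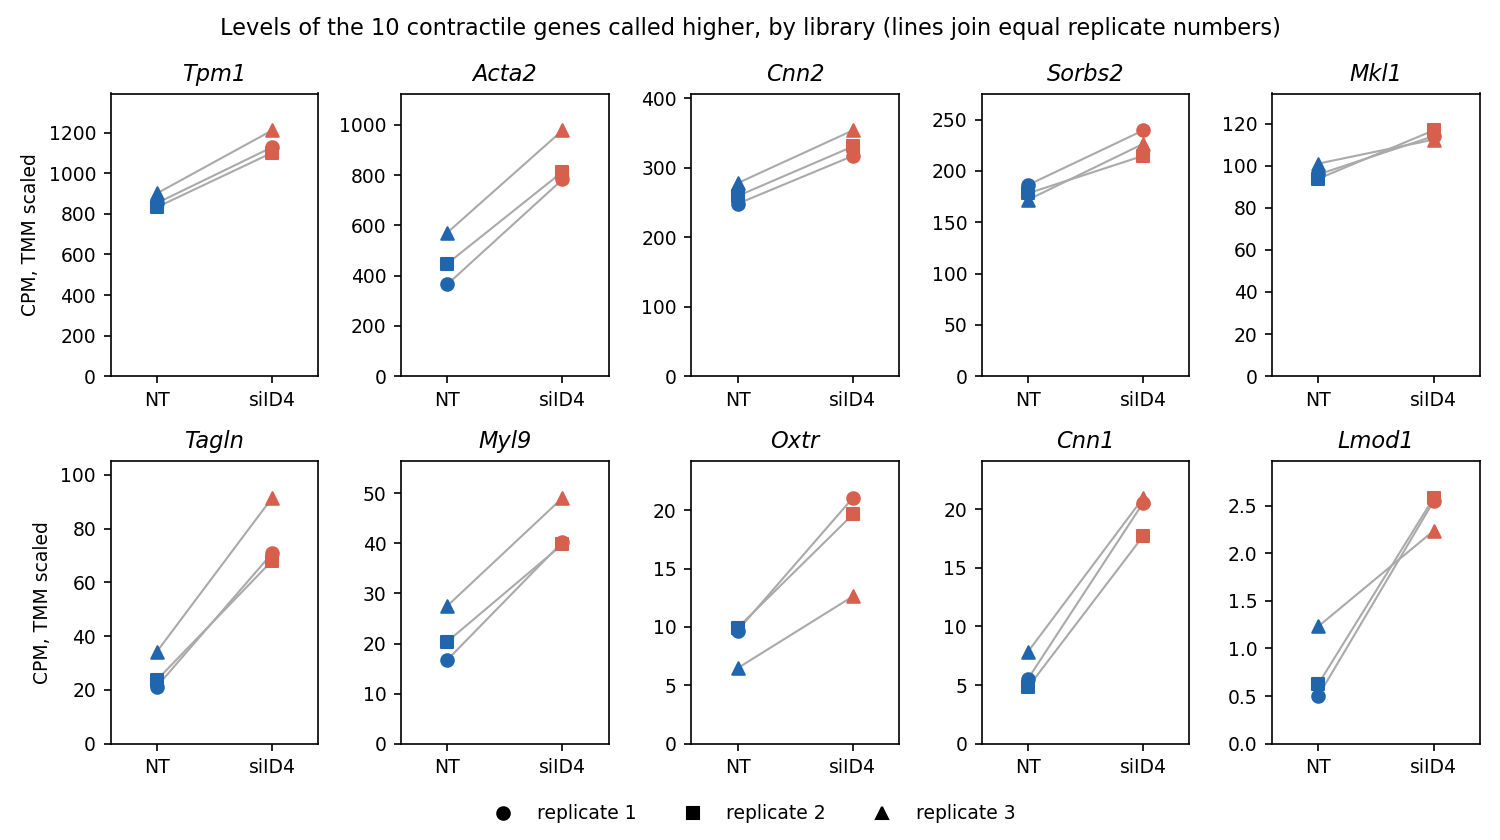
Level in CPM (TMM scaled, axis from 0) of the 10 genes called higher, in each NT library (blue) and each siID4 library (red), with grey lines joining libraries of the same replicate number. In all 10 genes every siID4 library lay above every NT library, so the lines would rise under any pairing. Oxtr was lowest in replicate 3 of both groups, where Acta2, Tagln and Myl9 were highest.

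The myosin genes divided between the regulatory light chain of smooth muscle and the other chains. Myl9, the smooth muscle regulatory light chain that the kinase phosphorylates, was 16.7, 20.4 and 27.5 CPM in NT and 40.3, 39.8 and 49.1 CPM in siID4. The groups did not overlap, and its log2 fold change was 1.00 (SE 0.17, adjusted p = 0.0111). The call of Myl9 held in all 6 fits that left out a library, with its highest adjusted p without NT replicate 2 (0.0496), and was lost when low counts were not filtered (0.0683). Myl12a and Myl12b, regulatory light chains of non-muscle myosin, stayed between 572 and 644 CPM and between 219 and 239 CPM over all 6 libraries. Neither was called (adjusted p = 0.441 and 0.647), and Myl12a was with the block (0.0371). Myl6, the essential light chain shared by smooth muscle and non-muscle myosin, was between 568 and 602 CPM (adjusted p = 0.514). Myl6b, a related essential light chain, was 2.46, 3.71 and 3.43 CPM in NT and 4.14, 5.53 and 5.39 CPM in siID4. It missed the threshold (log2 fold change 0.65, SE 0.19, adjusted p = 0.0648) and passed with the block (3.10e-04) and when low counts were not filtered (0.0303). Myl6, Myl12a and Myl12b had values that were not whole in all 6 libraries, so their levels rest on divided reads.

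Myh11, the smooth muscle myosin heavy chain and a defining marker of mature smooth muscle and myoepithelium, was too low to test. Its counts were 5, 2 and 6 in NT against 14, 4 and 8 in siID4. The heavy chains present were the non-muscle forms. Myh9 averaged 1753 CPM in NT against 1669 CPM in siID4 (adjusted p = 0.493), and Myh10 at 355 and 339 CPM (adjusted p = 0.467). Among 4 class II heavy chain genes (Myh9, Myh10, Myh11 and Myh14) compared per length, Myh11 made up 0.00980% in NT and 0.0186% in siID4 (exact permutation p = 0.3, n = 3 per group).

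Tropomyosins, the coiled coils that lie along the actin filament and gate myosin, differed in their makeup between the groups. Tpm1 was 853, 833 and 901 CPM in NT and 1129, 1102 and 1212 CPM in siID4, without overlap. It rose by 0.41 on the log2 scale (SE 0.05, adjusted p = 0.00240). Tpm2 was 238, 253 and 275 CPM in NT and 273, 285 and 319 CPM in siID4. The groups of Tpm2 touched, and it was not called (0.20, SE 0.07, adjusted p = 0.125, and 7.29e-07 with the block). Tpm3 was 301, 278 and 314 CPM in NT and 269, 254 and 278 CPM in siID4, the siID4 libraries lying just under the NT ones. It was not called (−0.16, SE 0.06, adjusted p = 0.116), and with the block it was lower (2.30e-05). Tpm4 overlapped between the groups, at 735 to 831 CPM in NT and 735 to 839 CPM in siID4 (adjusted p = 0.969). As a share of the 4 tropomyosin genes per length, Tpm1 was 40.3%, 40.3% and 39.4% in NT and 47.4%, 47.0% and 46.5% in siID4. The Tpm1 shares of the 2 groups did not overlap (exact permutation p = 0.1, n = 3 per group). The share of Tpm3 was lower in siID4, from 18.5% ± 0.488 to 14.6% ± 0.413 (SD, n = 3), as was that of Tpm4, from 26.9% ± 0.312 to 23.6% ± 0.387. A share also depends on the other genes of the family, and the level of Tpm4 itself hardly differed (log2 fold change −0.006). Values of Tpm3 and Tpm4 were not whole in each of the 6 libraries, so their levels rest in part on divided reads. The share of Tpm2 was 14.7% ± 0.669 in NT and 14.8% ± 0.536 in siID4 (exact permutation p = 0.6, n = 3 per group). Tropomyosin genes can make several splice forms, muscle and non-muscle among them, which gene counts do not separate.

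**Figure D3:**
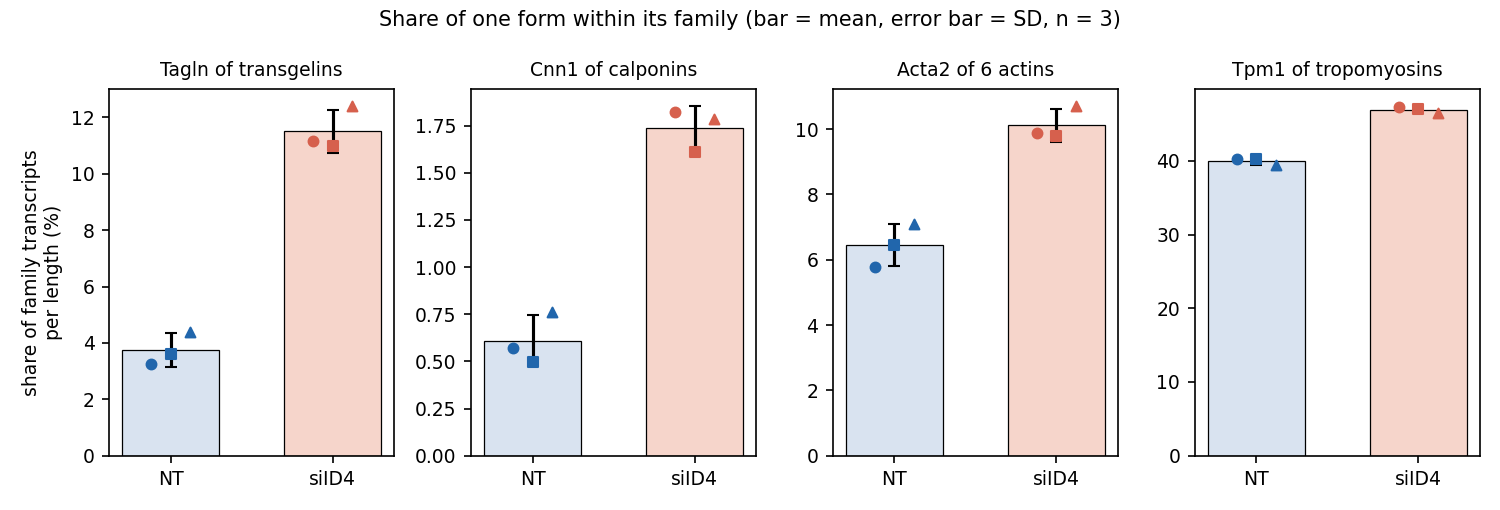
Share of a single form within its gene family, per length and in percent, for Tagln of 2 transgelins, Cnn1 of 3 calponins, Acta2 of 6 actins and Tpm1 of 4 tropomyosins. Bars are means, error bars SD and points the 3 libraries of each group, and in each panel the siID4 points lie above the NT points.

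Proteins that cap, bundle or link thin filaments changed unevenly. Lmod1, which encodes leiomodin, a nucleator of actin filaments in smooth muscle, was 0.502, 0.627 and 1.23 CPM in NT and 2.55, 2.58 and 2.24 CPM in siID4. It was among the scarcest members, with every siID4 library above every NT library, and its log2 fold change was 1.61 (SE 0.30, adjusted p = 0.0112). The call was lost when NT replicate 2 (adjusted p = 0.0574) or siID4 replicate 2 (0.0614) was left out. Sorbs2, a scaffold protein of stress fibres and Z-discs, was 186, 178 and 172 CPM in NT and 240, 215 and 226 CPM in siID4. It rose by 0.34 on the log2 scale (SE 0.05, adjusted p = 0.00558) and passed in all 6 fits that left out a library. Synpo2, an actin-bundling protein of the Z-disc, was 3.01, 4.65 and 3.78 CPM in NT and 4.75, 6.25 and 5.00 CPM in siID4. Its groups lay close together, and it was not called (0.48, SE 0.19, adjusted p = 0.138, and 0.00387 with the block). Cald1, caldesmon, which restrains myosin on actin, was between 1060 and 1141 CPM in NT and between 1137 and 1220 CPM in siID4. It overlapped between the groups (adjusted p = 0.174, and 6.95e-04 with the block). Svil, supervillin, and Smtn, smoothelin, overlapped as well, at 0.09 and 0.01 as log2 fold change and 0.418 and 0.940 as adjusted p. Svil passed with the block (0.0487). Des, desmin, had between 1 and 4 counts in every library and was not tested.

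None of the PDZ-LIM genes, whose proteins tether kinases and α-actinin to the cytoskeleton, was called by edgeR, and of the 3 tested 1 had an unadjusted p under 0.05, which was also called by DESeq2. Pdlim7 was 101, 96.9 and 119 CPM in NT and 127, 122 and 140 CPM in siID4. Its groups did not overlap, and it lay at the threshold (log2 fold change 0.29, SE 0.08, adjusted p = 0.0576). It passed with the block (9.20e-09), DESeq2 (0.0231), library totals (0.0352), upper quartile scaling (0.0480), a minimum mean of 5 CPM (0.0475), no filter (0.0489) and without NT replicate 3 (0.0117). For Pdlim1 and Pdlim5 the log2 fold change was −0.02 and −0.03 (0.937 and 0.643 as adjusted p). Pdlim3 had 1 count over the NT libraries and 8 over the siID4 libraries and was not tested.

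At the level of the receptor and the switch on myosin, the receptor changed and the phosphatase did not pass. Oxtr, the oxytocin receptor through which milk ejection is triggered, was 9.69, 9.92 and 6.47 CPM in NT and 21.1, 19.7 and 12.6 CPM in siID4. The groups did not overlap, and replicate 3 was the lowest library in both. Oxtr rose by 1.04 on the log2 scale (SE 0.23, adjusted p = 0.0274). The step within same-numbered libraries was 1.08, 0.95 and 0.91 on the log2(CPM + 0.5) scale. The call rested on the full set of libraries. It was lost without NT replicate 1 (adjusted p = 0.0529), 2 (0.0608) or 3 (0.0536), without siID4 replicate 1 (0.0750) or 2 (0.105), and when low counts were not filtered (0.0892).

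Mylk, myosin light chain kinase, was also lowest in replicate 3 of both groups, with 11.9, 11.1 and 7.04 CPM in NT and 17.7, 18.7 and 12.8 CPM in siID4. It was not called by edgeR (0.72, SE 0.21, adjusted p = 0.0729). It passed with DESeq2 (0.00873), with the block (1.77e-08) and without siID4 replicate 3 (0.0372). The myosin phosphatase subunit genes Ppp1r12a and Ppp1r12b, which encode proteins that bring the phosphatase to myosin, did not pass, with 0.13 and 0.07 as log2 fold change and 0.188 and 0.498 as adjusted p. Ppp1r12a passed with the block (0.00343). Ppp1r14a, which encodes CPI-17, an inhibitor of that phosphatase, had 8 counts over the NT libraries and 25 over the siID4 libraries and was not tested.

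Of Srf and its cofactors Mkl1, Mkl2 and Myocd, Mkl1 alone was called. Mkl1, which encodes MRTF-A, was 95.8, 93.8 and 101 CPM in NT and 114, 117 and 112 CPM in siID4, without overlap. It rose by 0.24 on the log2 scale (SE 0.05, adjusted p = 0.0153), or 1.18-fold as a fitted fold change, and lost the call when NT replicate 2 (0.0774) or siID4 replicate 2 (0.0891) was left out. Srf was 62.2, 69.3 and 81.3 CPM in NT and 76.3, 80.7 and 82.8 CPM in siID4. NT replicate 3 lay inside the siID4 range, and Srf was not called (0.17, SE 0.09, adjusted p = 0.276, 0.0447 without NT replicate 3 and 0.00297 with the block). Mkl2, which encodes MRTF-B, overlapped between the groups (0.01, adjusted p = 0.972). Myocd, myocardin, the muscle-restricted cofactor, had 4 counts over the NT libraries and 4 over the siID4 libraries, 1 or 2 in each library. Sgsm3 overlaps Mkl1 on the opposite strand and averaged 26.1 and 26.8 CPM in the NT and siID4 groups (adjusted p = 0.841).

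Compared per length, the 33 members tested spanned from 0.372 to 1618 TPM in the NT libraries. The highest was Myl6, then Tpm1 at 1025 ± 36.4, Cald1 at 802 ± 32.8 and Tagln2 at 789 ± 70.6 TPM (SD, n = 3), with Myl12a at 948 TPM between Tpm1 and Cald1. Cald1 and Tagln2 lay within their spread of each other. Acta2 ranked 8 in NT at 484 ± 107 TPM, within its spread of Tpm3 at 474 ± 26.1 TPM, and in siID4 it stood at 932 ± 106 TPM. Cnn1, at 4.77 ± 1.22 TPM in NT and 16.1 ± 1.30 TPM in siID4, and Oxtr, at 3.56 ± 0.803 and 7.54 ± 1.97 TPM, remained low in both groups. Cnn1, Lmod1 and Tagln, which had the largest fold changes among the called genes, ranked 28, 33 and 22 of the 33 in NT.

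Ratios between a gene taken as the muscle form and a relative were formed within each library, per length, so that library scaling cancels. For the Ppp1r12 and tropomyosin pairs this choice does not mean that the first gene is the form of smooth muscle. Of 14 pairs compared, 11 had higher ratios in every siID4 library than in any NT library, each at an exact two-sided permutation p of 0.1, the smallest possible with 3 against 3 libraries (0.127 after Benjamini-Hochberg adjustment over the 14). These pairs share genes and are not separate results. Their first genes were Cnn1, Tagln, Acta2, Myl9 and Tpm1, themselves called higher, and Tpm2, which was not called and overlapped between the groups. The ratio of Tpm2 to Tpm3 also draws on the lower siID4 levels of Tpm3. The same share for pairs of other genes is not given here. Tagln was 3.36%, 3.73% and 4.61% of the level of Tagln2 in NT and 12.6%, 12.3% and 14.1% in siID4, a 3.36-fold step. Cnn1 was 2.06%, 1.72% and 2.61% of Cnn2 in NT and 5.99%, 4.95% and 5.48% in siID4, a 2.60-fold step. Cnn1 thus made up more of the calponin RNA in every siID4 library.

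Acta2 was 13.6%, 15.7% and 17.3% of Actb, a cytoplasmic actin, in NT and 25.3%, 25.1% and 28.4% in siID4. Against Actg1, the other cytoplasmic actin, it was 11.3%, 12.4% and 13.7% in NT and 19.4%, 19.1% and 20.8% in siID4. The siID4 ratios lay above the NT ratios with both partners, although Actb and Actg1 themselves were not called (log2 fold change 0.14 and 0.24, edgeR adjusted p 0.274 and 0.163, or 1.33e-04 and 8.51e-08 with the block). Myl9 was 3.15%, 3.76% and 4.71% of Myl12a in NT and 7.12%, 6.95% and 8.22% in siID4. Tpm1 was 212%, 223% and 214% of Tpm3 in NT and 314%, 323% and 325% in siID4. The 3 pairs that overlapped were Myh11 with Myh9 and with Myh10 (exact permutation p = 0.3 each) and Ppp1r12b with Ppp1r12a (p = 0.5). The ratio of Ppp1r12b to Ppp1r12a differed by −0.05 on the log2 scale between groups, within the spread of its replicates. The partner genes Actb, Actg1, Cnn3, Myh9, Myh10, Myl12a, Myl12b, Tpm3 and Tpm4 had values that were not whole in each of the 6 libraries. Ratios to these genes therefore rest in part on divided reads.

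**Figure D4:**
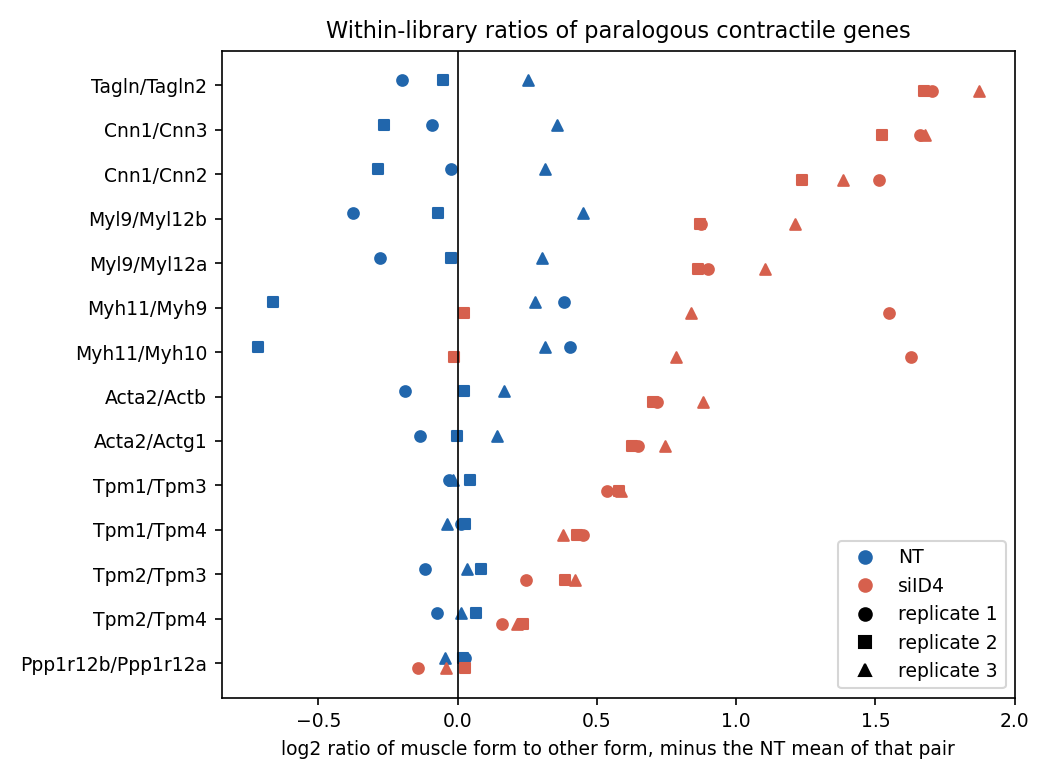
Log2 ratio of a gene taken as the muscle form to a related gene in each library, per length, minus the NT mean of that pair (x axis), for 14 pairs. Blue points are NT and red points siID4, with symbols for replicate number, and 11 pairs show no overlap between the colours. Tagln/Tagln2 has the largest difference at 1.75 and Ppp1r12b/Ppp1r12a the smallest at −0.05.

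Replicate number ordered many of these genes in the same way in both groups. Of the 33 members tested, 18 were highest in replicate 3 of both NT and siID4, against 21.7% of all genes tested, and 5 were lowest in replicate 3 of both, against 21.5%. Acta2, Actg2, Cnn1, Tagln and Myl9 were in the first set, with Srf, and Oxtr, Mylk, Ppp1r12b, Myl12b and Mkl2 in the second. The smooth muscle actins and the 3 calponins thus peaked in the libraries where the receptor and the kinase were lowest, while Acta1 followed neither order. What the replicate numbers stand for is not given in the labels. Differences between same-numbered libraries were positive for all 10 called genes in all 3 pairs. Any pairing would give this, since in each of these genes every siID4 library lay above every NT library. For Tpm1 they were 0.40, 0.40 and 0.43, and for Acta2 1.10, 0.86 and 0.78 on the log2(CPM + 0.5) scale. Over the 33 members the median of these differences was 0.25, 0.22 and 0.15 in pairs 1, 2 and 3.

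**Figure D5:**
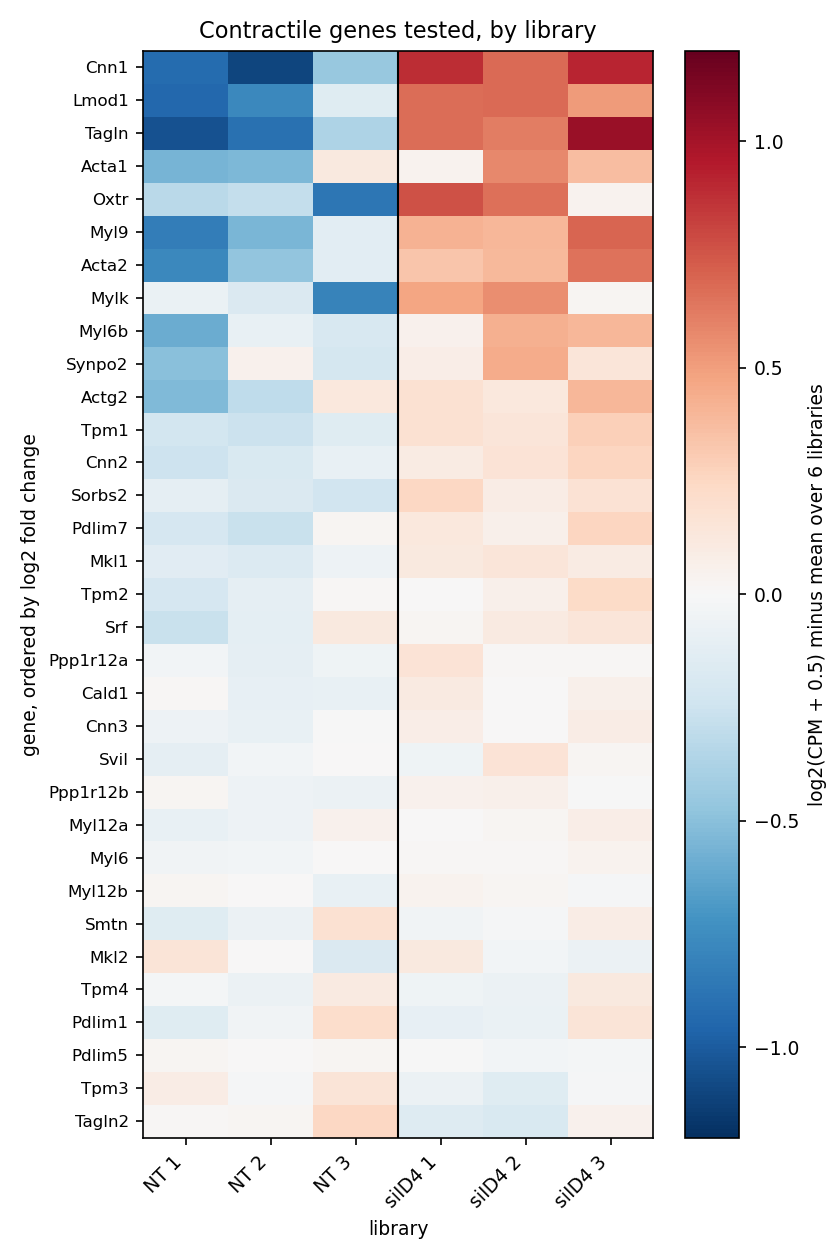
Deviation of log2(CPM + 0.5) from the mean over the 6 libraries (colour) for the 33 members tested (rows, ordered by log2 fold change) in each library (columns). The upper rows turn from blue in NT to red in siID4, with NT replicate 3 paler than the other NT libraries for Cnn1, Tagln, Myl9 and Acta2 and darker for Oxtr and Mylk.

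Genes that signal from receptor to myosin included no call in the direction of the contractile proteins. Of 36 listed genes of contraction signalling 34 were tested, and 0 were called higher and 5 lower, or 14.7% against 4.93% of all genes tested (5 higher and 11 lower with the block). DESeq2 called 0 higher and 5 lower, and at an unadjusted p under 0.05 edgeR had 2 higher and 8 lower. Over all genes tested 12.9% were higher and 12.7% lower at that unadjusted p, and 17.9% and 18.3% with the block. Rock2, a kinase that inhibits the myosin phosphatase, averaged 242 ± 4.18 CPM in NT against 193 ± 3.24 CPM in siID4 (SD, n = 3; log2 fold change −0.32, SE 0.04, edgeR adjusted p = 0.00240). Ppp1ca, a catalytic subunit of protein phosphatase 1, fell by 0.25 on the log2 scale (adjusted p = 0.00970), and Itpr3, a calcium release channel, fell by 0.25 (0.0113). Both lost the call without siID4 replicate 2 (0.0653 and 0.0718). Ppp1cc, a further catalytic subunit, fell by 0.18 (0.0324), and Gna13, a G protein gene and the remaining call (outside the 4 with the smallest p), fell by 0.26 (0.0335). Ppp1cc lost its call whichever library was left out (up to 0.152, without siID4 replicate 2), and Gna13 in 4 of 6 such fits (up to 0.127, without NT replicate 2). Ppp1cb, the remaining catalytic subunit on the list, averaged 263 CPM in NT and 265 CPM in siID4. It was not called (log2 fold change 0.009, edgeR adjusted p = 0.922).

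Other genes known to respond to SRF were called in 7 of 36 cases, all higher, which is 19.4% against 4.62% of all genes tested (15 higher and 6 lower with the block). At an unadjusted p under 0.05 edgeR had 11 of the 36 higher and 3 lower, and DESeq2 called 7 higher and 1 lower. Among all genes tested the shares higher and lower were 12.9% and 12.7% at that unadjusted p, and 17.9% and 18.3% with the block. Csrp1, a LIM protein of smooth muscle, averaged 200 ± 9.63 CPM in NT against 254 ± 10.7 CPM in siID4 (SD, n = 3; log2 fold change 0.35, adjusted p = 0.00483). Filip1l, a regulator of cell motility, went from 63.2 ± 3.46 to 79.3 ± 1.09 CPM (adjusted p = 0.00739). Cyr61, a matricellular protein of the CCN family, went from 225 ± 29.8 to 325 ± 18.6 CPM (0.00989), and Zyx, zyxin of focal adhesions, from 536 ± 15.8 to 641 ± 36.7 CPM (0.0158). Csrp1 and Filip1l passed in all 6 fits without a library, Cyr61 in 5 (0.0542 without siID4 replicate 2) and Zyx in 3 (up to 0.0817, without NT replicate 2). The immediate early genes on the list (Fos, Fosb, Egr1, Egr2, Egr3, Junb, Ier2 and Ier3, named as a group after their values were seen) included no call by edgeR with all libraries. Ier3 was the gene that DESeq2 called lower (adjusted p = 0.0105), and edgeR called it lower without NT replicate 1 (0.00621). Their log2 fold changes lay between −0.42 for Ier3 (adjusted p = 0.0800) and 0.19 for Junb (0.599), and Ier2, Ier3 and Egr1 were lower with the block (4.21e-06, 3.48e-10 and 1.89e-06).

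Of 27 listed modulators of the myocardin network 26 were tested, 4 being called higher (15.4%) and 2 lower (7.69%), or 10 and 6 with the block. Over all genes tested the shares were 4.62% and 4.93%, or 17.9% and 18.3% with the block. Foxo1, a forkhead factor, fell by 0.34 on the log2 scale (adjusted p = 0.00787) and passed in all 6 fits without a library. Foxo4, a forkhead factor known to bind myocardin, rose by 0.31 (adjusted p = 0.0268). Of the TEAD factors, Tead3 rose by 0.35 (0.0232) and Tead4 fell by 0.39 (0.0234). Tead1, the most abundant of these 3 and outside the 4 genes with the smallest p, rose from 241 ± 4.02 to 272 ± 4.97 CPM (SD, n = 3; edgeR adjusted p = 0.0280, up to 0.0926 without NT replicate 2). Foxo4, Tead3 and Tead4 passed in 1, 2 and 3 of those 6 fits, with adjusted p up to 0.119 and 0.123 for Foxo4 and Tead4 when siID4 replicate 2 was left out, and up to 0.0964 for Tead3 when NT replicate 2 was. Of 22 relatives of the members, such as non-muscle myosins and tropomodulins, 15 were tested, with 2 called higher and 2 lower, or 13.3% each (7 and 3 with the block). Pdlim4, a PDZ-LIM gene, rose from 2.91 ± 0.526 to 4.60 ± 0.339 CPM, and Tmod3, a tropomodulin that caps filament ends, fell from 172 ± 7.09 to 142 ± 9.87 CPM (SD, n = 3; adjusted p = 0.0389 and 0.0201 by edgeR). Pdlim4 kept its call in 1 and Tmod3 in 4 of the 6 fits that left out a library, and without siID4 replicate 2 both were lost (0.130 and 0.107). DESeq2 called 1 of the list higher and 2 lower, and Pdlim4 missed its threshold there (0.0515).

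Markers of other contractile and mesenchymal cells were measured beside these results. Over all genes tested, edgeR called 4.62% higher and 4.93% lower, or 17.9% and 18.3% with the block. Of 11 listed genes of vascular smooth muscle and pericytes 10 had a row and 4 were tested. Notch3, Mcam and Pdgfrb were called higher (log2 fold changes 0.58, 0.47 and 0.43), or 75.0% of the few tested. The summed level of the list was 253 to 317 CPM in NT and 363 to 404 CPM in siID4. Rgs5, Cspg4, Kcnj8, Abcc9, Cox4i2 and Des, more restricted markers of these cells, were all under 1 CPM. Ndufa4l2, the remaining gene tested, was at 3.84 CPM in NT and 4.33 CPM in siID4 and was not called (log2 fold change 0.18, edgeR adjusted p = 0.763). Of 12 fibroblast genes 10 were tested, and Col1a1, Col1a2, Cxcl12 and Pdgfrb were called higher (40.0%) and Pdgfra lower (10.0%). With the block 7 were higher and 3 lower. S100a4 (447 ± 102 CPM in NT, 339 ± 56.0 CPM in siID4) and Dcn (62.6 ± 11.0 and 49.1 ± 13.2 CPM) had lower siID4 means, were not called by edgeR (adjusted p = 0.249 and 0.372) and were lower with the block (9.54e-06 and 1.13e-06). Col3a1 (769 ± 191 CPM in NT, 1141 ± 279 CPM in siID4), Fap (2.17 and 3.27 CPM) and Thy1 (0.372 and 0.792 CPM) had higher siID4 means. These were not called by edgeR either (adjusted p = 0.207, 0.0790 and 0.0961) and were higher with the block (4.49e-17, 0.00601 and 0.0172). The list summed to 3721 to 4535 CPM in NT and 5082 to 5897 CPM in siID4, while Lum and Dpt, further fibroblast genes, were under 1 CPM. Of 20 genes of skeletal and heart muscle 17 were under 1 CPM, with Myod1, Myog, Myf6 and Ckm at 0 counts in all 6 libraries. Tnnt2, the cardiac troponin T gene, was called lower (60.3 CPM in NT, 47.9 CPM in siID4). The endothelial list summed to at most 2.37 CPM and the leukocyte list to at most 3.90 CPM in any library.

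Basal and luminal epithelial markers gave the frame for these changes. Of 16 basal genes 3 were called higher (Sparc, Snai2 and Trp63, 18.8%) and 2 lower (Dsc3 and Itgb4, 12.5%), or 4 and 5 with the block. Over all genes tested 4.62% were called higher and 4.93% lower, or 17.9% and 18.3% with the block. The basal list had a sum of 4156 to 4527 CPM in NT and 4243 to 4641 CPM in siID4. Krt5 was 779, 773 and 914 CPM in NT and 740, 679 and 762 CPM in siID4, below NT in every library. It was not called by edgeR (log2 fold change −0.18, adjusted p = 0.165, and 4.65e-05 with the block). Of 15 luminal genes tested 2 were called higher (Gata3 and Kit) and 2 lower (Epcam and Areg), 13.3% each, or 4 and 6 with the block. The luminal list had a sum of 928 to 1023 CPM in NT and 908 to 975 CPM in siID4. Of the marker genes called, Col1a1, Col1a2, Cxcl12 and Sparc passed in all 6 fits that left out a library. The other marker calls were lost in at least 2 of the 6, each without NT replicate 2 or siID4 replicate 2. The part of the fibroblast and pericyte genes in the rise of the contractile genes was not tested.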

How the data were processed

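RNA sequencing of 6 libraries (3 NT, 3 siID4) was analysed from a single table. The authors deposited expected counts per gene, not normalized, with a gene length. Cutadapt, STAR and RSEM appear in the submitters' processing notes, with build mm10. The sources used here do not give versions, annotation or strand setting. Values were rounded (10.0% to 10.6% per library were not whole, any remainder counted) and tested with edgeR 4.0.16 (R 4.3.3) after filterByExpr and TMM scaling, with group as the only term and robust quasi-likelihood fits. Standard errors were derived from the F statistic. DESeq2 1.42.0 and limma-voom (limma 3.58.1) were alternatives. P-values were adjusted over all genes tested. The fits were checked on simulated data. Ratios used 0.5 added counts and the deposited lengths.

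Every member could be named, with Id4, partner genes of the ratios, the 4 genes of smallest adjusted p per pathway list and called or abundant markers. Overlapping genes, immediate early genes, Gna13, Ppp1cb, Tead1, Dcn, S100a4, Fap, Thy1, Ndufa4l2, Krt19, Lgr5 and markers near 0 were named after their values were seen. The members, lists and pairs were chosen with earlier results of these data known. Gene positions and overlaps come from GENCODE M21 (GRCm38), which matched all 39 members.

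Deviations from the group means correlated across genes between libraries with equal numbers (0.424, 0.140 and 0.378 in the 3 pairs), and at most −0.0214 otherwise, so equal numbers appear to mark paired libraries. The design text names no block, and the reported fit did not use this pairing, so the calls given as reported ignore it. A replicate block was fitted as an alternative and called 23 members higher and 2 lower, where the reported fit called 10 and 0. Library pairs of a group were not copies of each other, their counts differing beyond sampling noise (5.40 to 14.6 chi-square units per gene). The design text calls the replicates biological without saying what was repeated, so p-values measure the spread between these libraries. Of the listed genes, Lmod2, Higd1b, Cldn5 and Adgre1 were not analysed here.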

Additional observations from a re-analysis of the deposited data

How the results depend on the processing

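The direction of all 10 called members was the same in every alternative run. Their groups did not overlap, so leaving out a library could hardly have reversed it. All 10 stayed called with DESeq2 size factors, upper quartile scaling, library totals, limma-voom, DESeq2, fits without robust estimation and the replicate block. Without the filter on low counts 7 of the 10 remained, and with genes of mean 5 CPM or more 9 remained, since Lmod1 was not tested there. Members called higher were 23 with the replicate block in place of 10, and all genes called were 5038 in place of 1331. Pathway lists under the replicate block gave 16 calls of 34 tested for contraction signalling and 21 of 36 for SRF targets. Myocardin modulators had 16 of 26 and relatives of the members 10 of 15, in a fit that called 36.1% of all genes tested.

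Leaving out a library gave 6 to 13 members called higher, 445 to 1351 genes called and a member median of 0.15 to 0.27. The member median was 0.14 for genes of mean 5 CPM or more, where fewer members were tested. With library totals 829 genes were called higher and 564 lower, against 644 and 687. Genes near no difference changed sign. Tpm4, at −0.006 in the reported fit, was 0.000375 with upper quartile scaling, 0.023 with library totals and 0.0049 for genes of mean 5 CPM or more, and between −0.069 and 0.046 without a library. Without a library Smtn ranged from −0.053 to 0.12, Pdlim1 from −0.10 to 0.092 and Mkl2 from −0.075 to 0.092, and Pdlim1 was 0.011 with library totals. None of these 4 genes was called in any fit, and the cause was not tested. Myh11, Myocd, Des, Pdlim3 and Ppp1r14a, too low for the filter, were tested without it and were not called (adjusted p from 0.230 for Ppp1r14a to 0.978 for Myocd). At most 14 counts in any library limit what those tests could detect.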
